A study of Mus musculus with 12 samples.

Results

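Germline genes are active in developing eggs and sperm and are silent in most other cells. In mouse embryonic stem (ES) cells many of them are held down by PRC1.6, a Polycomb complex whose MGA and MAX subunits bind the E-box and whose E2F6 and DP1 subunits bind E2F sites, and by DNA methylation and H3K9 methylation of their promoters. HDAC1 and HDAC2 are the main nuclear enzymes that remove acetyl groups from histones in these cells. The genes described here fall into regulators of germ cells and of the entry into meiosis, proteins of the meiotic chromosome, and proteins of the piRNA pathway. Those of the meiotic chromosome include its axis, the synaptonemal complex that joins homologues, and the cohesin that holds sister chromatids. In the piRNA pathway, small RNAs bound by PIWI proteins in germ granules silence transposons. Some of the listed genes, such as Tex19.1 and Dazl, are also transcribed in ES cells.

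A list of 33 germline and meiosis genes was examined, taken by gene symbol from the probe annotation of the arrays. Of these, 32 had at least 1 probe, with 47 probes in all among the 45281 on the array, and Rpl10l, a germ cell copy of a ribosomal protein gene, was matched to none. Expression was measured on 12 Illumina bead arrays of E14 mouse ES cells that are homozygous for floxed Hdac1 (Hdac1lox/lox) and floxed Hdac2 (Hdac2lox/lox) and carry CreER, a Cre recombinase that 4-hydroxytamoxifen (OHT) switches on. All 4 groups carry these alleles, were grown without feeder cells on gelatin in serum and LIF, and differ by the day of the course, with 3 arrays each at days 0, 1, 2 and 3 and an OHT exposure that lasted 16 hours. The series design calls day 0 wild type, while the labels title it with +OHT like the other days. Neither cells given OHT without floxed alleles nor cells kept equally long without OHT are among the samples. Neither clonal origin nor separate culture of the 3 replicates is stated in the labels, and the p-values below therefore measure only the spread between these samples.

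Between 14509 and 16770 probes per array were detected, where detected means a detection p-value under 0.01 against the negative control beads of the same array. Probes detected on at least 3 of the 12 arrays were tested, with the brightest such probe for each gene, which left 9934 genes, 20 of the germline genes among them. Levels are given as log2 normalized intensity, in which the lowest detected signal of an array lay between 5.89 and 6.37. The level of 1 probe cannot be set against that of another. A gene was called when its adjusted p in limma's moderated test, with Benjamini-Hochberg adjustment over the 9934 genes, was under 0.05, and "rose" and "fell" are used of called genes. No probe is named Hdac1, and the Hdac2 probe tested was not called at any day against day 0 (-0.26 ± 0.14 at day 3, limma adjusted p of 0.149). Where that probe lies relative to the floxed exons is not annotated, and it does not check the deletion. Since the cells were measured in bulk, a change in the number of cells that express a gene and a change in RNA per cell cannot be told apart.

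Of the 32 genes with a probe, 16 were detected on all 3 arrays at day 0 (50%), 18 at day 1 (56.2%), 20 at day 2 (62.5%) and 18 at day 3 (56.2%). Over all 19057 genes with a probe the corresponding shares were 44%, 44.6%, 47.7% and 44.7%. Detection on at least 1 array gave 17, 19, 22 and 20 germline genes. Dmrtc2, a DM-domain transcription factor needed in male meiosis, went from 0 arrays at day 0 to all 3 at day 1. Its day 0 detection p-values were 0.0342, 0.0427 and 0.0139, over the cutoff of 0.01 and under 0.05. Tex101, a GPI-anchored surface glycoprotein of germ cells, went from 0 arrays at day 0 and 1 array at day 1 to all 3 at days 2 and 3. Tdrd9, an RNA helicase of the piRNA pathway, first appeared at day 2, where all 3 arrays detected it as they did at day 3, after 0 arrays at days 0 and 1. Sohlh2, a helix-loop-helix factor of spermatogonia and oocytes, was at 2 arrays at day 0 and all 3 afterwards. In the other direction, the meiotic axis protein Hormad2 and the germ granule protein Asz1 were detected on all 3 arrays until day 2 and on 2 of 3 at day 3. The array that missed both was day 3 replicate 2, which had the fewest probes detected. Their detection p-values there, 0.0107 and 0.0118, were just over the cutoff.

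Another 12 of the germline genes with a probe did not pass the detection filter. Of these, 10 were detected on 0 of 12 arrays: Dmrt1 and Prdm1, transcription factors of the testis and of primordial germ cells, Sycp1 and Sycp3, filament and axis proteins of the synaptonemal complex, Tex12 of its central element, the axis protein Hormad1, Tex15, the piRNA pathway proteins Mael and Tdrd1, and Slc25a31, the germ cell ADP/ATP carrier. Stra8, the retinoic acid target that starts meiosis, and Sycp2, an axis protein, were detected on 1 array each. For both genes this was day 2 replicate 2, the array with the most probes detected and the lowest detection limit. All probes of these 12 genes lay between 4.49 and 6.10, within or below the range of the detection limits, so changes in them could not be measured at this signal. With no filter, Stra8 and Sycp2 passed from day 1 to day 2 (0.81 and 0.84, limma adjusted p of 0.0359 and 0.04). Their day 2 means of 5.80 and 5.75 were below the detection limits. By role, the filter kept 5 of 8 regulators of germ cells and meiotic entry, 4 of 10 meiotic chromosome genes and 10 of 12 piRNA pathway and germ granule genes. The grid of detection by gene and day shows these blocks.

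**Figure D1:**
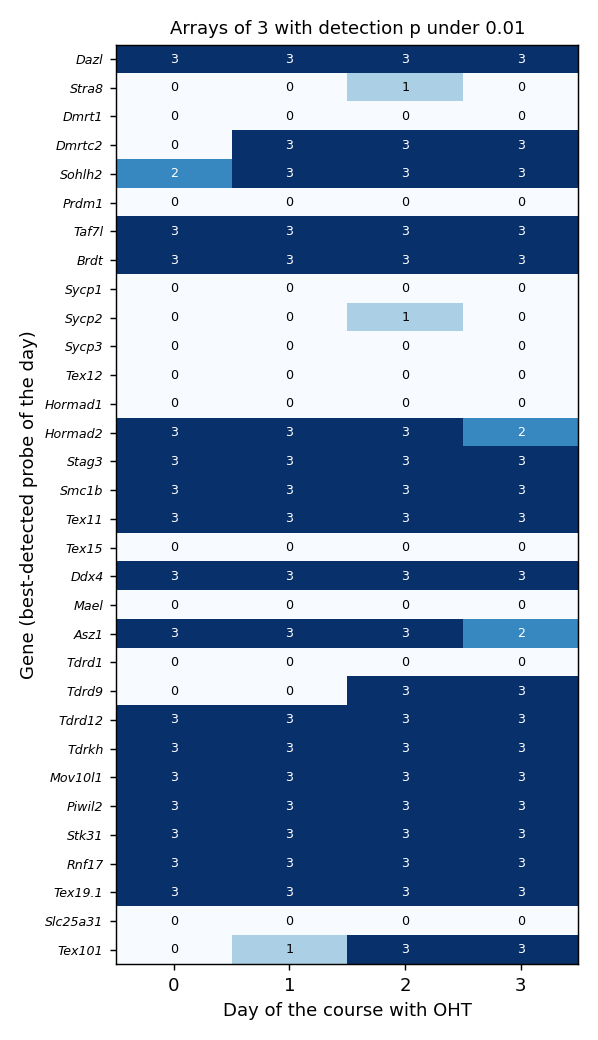
Number of arrays, of 3 per day, on which each of the 32 germline genes with a probe had a detection p under 0.01, by day of the course (x axis) and gene (y axis). The genes detected on all 3 arrays number 16, 18, 20 and 18 at days 0, 1, 2 and 3, and 10 genes are at 0 on every day.

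Against day 0, 1 of the 20 genes tested rose at day 1 and 0 fell, where 0.0805% of all genes tested were called higher and 0.0201% lower. At day 2, 8 rose (40%, with 14.8% of all genes called higher) and 2 fell (10%, with 7.6% called lower). Day 3 had 9 rises (45%, with 21.4% of all genes called higher) and 5 falls (25%, with 17.8% called lower). The median difference of the 20 genes was 0.17, 0.40 and 0.31 at days 1, 2 and 3, and 0.09, 0.23 and 0.28 with genes undetected in 1 group set to their bound, while that of all genes was 0.02, 0.03 and 0.01. Dmrtc2, Tdrd9 and Tex101, undetected at day 0, passed the filter only through the later days and so had to differ, which all counts, shares and medians of the 20 genes include. Among the other 17 genes tested, the rises were 0 at day 1, 5 at day 2 and 6 at day 3. The 3 comparisons share the day 0 arrays. Because the genes were listed with earlier results of these data known, their shares are no independent contrast with all genes.

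Taf7l, Tex101, Dmrtc2, Tdrkh, Mov10l1, Tdrd9 and Brdt rose at both day 2 and day 3, Stag3 at day 2 alone, and Sohlh2 and Tex19.1 at day 3 alone. Asz1 and Stk31 fell at both days, and Rnf17, Hormad2 and Tdrd12 at day 3 alone. Being called at 1 of these days and not at the other is no test of a difference between them, which is given for the steps between days below. Dazl and Smc1b were called in those steps only, and Ddx4, Piwil2 and Tex11 in none of the 5 comparisons. By limma's F test over the course, 16 of the 20 genes changed, or 13 of the 17 that were detected at day 0, with 37.6% of all genes called. The 3 arrays of day 2 lay above all 3 of day 0 for 9 genes (22.8% of all genes) and below them for 4 (16.1%), and those of day 3 did so for 11 (24.3%) and 5 (21%). For day 1 the numbers were 4 above (10.6%) and 4 below (6.68%). Of those above day 0, the 3 genes undetected at day 0 made up 3 at each day, which leaves 1, 6 and 8 at days 1, 2 and 3.

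**Figure D2:**
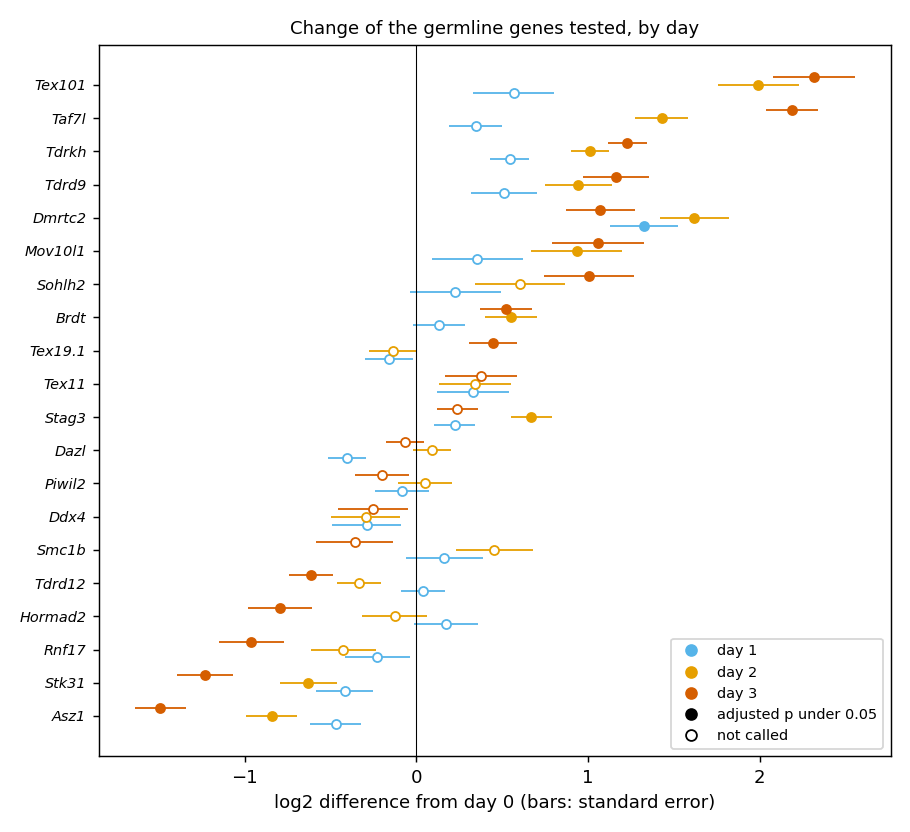
Fitted log2 difference from day 0 (x axis) of the 20 germline genes tested (y axis) at days 1, 2 and 3, with limma's standard error as bars, filled where the adjusted p is under 0.05. Differences run from -1.49 for Asz1 to 2.32 for Tex101 at day 3, and those of Tex101, Dmrtc2 and Tdrd9 start from undetected signals, for which the text gives lower bounds.

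The promoters were read to show which of these genes carry the letters that PRC1.6 subunits are known to bind. RefSeq promoters (assembly GRCm38.p6, from 250 bases before to 50 bases after the annotated start) were matched by symbol for 28 of the 33 genes, with 33 promoters in all. Dmrt1, Tex11, Tex15, Piwil2 and Rnf17 were not matched. The E-box CACGTG, which reads the same on both strands, was in 14 of the 28 genes (50%), against 7.15% of all 32851 promoters of the same length and 10.9% of the 14281 with at least 10 CpG. The E2F-type letters GCGGGAA, searched on both strands, were in 9 genes (32.1%), against 4.6% of all promoters and 9.2% of those with at least 10 CpG. In the first listed promoter of each germline gene, CpG dinucleotides numbered 10 to 38 with a median of 20. The median was 7 over all promoters and 22 over those with at least 10 CpG. No matches of the E-box and the E2F-type letters overlapped in these genes.

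Both letter sets occurred in genes that rose, in genes that were not called and in genes that were not detected. Of the 10 genes that rose at day 2 or day 3, 5 had an E-box (Taf7l, Brdt, Stag3, Tdrd9 and Mov10l1) and 2 the E2F-type letters (Dmrtc2 and Stag3). Of the 4 matched genes that fell, 1 had an E-box (Stk31) and 0 the E2F-type letters. Among the 10 matched genes that did not pass the detection filter, 7 had an E-box and 4 the E2F-type letters, and Sycp3, Tex12, Hormad1 and Slc25a31 had both. These matches are a description of the letters in this window and say nothing of what binds there.

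The 6 promoters below are printed 5′ to 3′ on the gene's strand with the matches in capitals. They are of Taf7l and Tdrd9, which rose and hold 1 and 2 E-boxes, Stag3, which rose at day 2 and holds both letter sets (the E2F-type letters on the opposite strand, TTCCCGC), Dmrtc2, the gene called at day 1, with the E2F-type letters alone, Stk31, which fell and holds an E-box, and Hormad1, which was not detected and holds 2 E-boxes and the E2F-type letters. Their places in GRCm38.p6 are chrX:134476441-134476740 on the minus strand for Taf7l, chr12:111971309-111971608 on the plus strand for Tdrd9, chr5:138280259-138280558 on the plus strand for Stag3, chr7:24869807-24870106 on the plus strand for Dmrtc2, chr6:49395289-49395588 on the plus strand for Stk31 and chr3:95559427-95559726 on the plus strand for Hormad1.
Taf7l: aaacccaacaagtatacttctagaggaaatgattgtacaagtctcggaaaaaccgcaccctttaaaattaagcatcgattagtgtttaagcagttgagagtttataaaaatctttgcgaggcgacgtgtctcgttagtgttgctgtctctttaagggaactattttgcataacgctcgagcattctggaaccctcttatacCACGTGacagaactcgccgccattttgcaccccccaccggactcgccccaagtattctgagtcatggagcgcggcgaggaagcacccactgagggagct
Tdrd9: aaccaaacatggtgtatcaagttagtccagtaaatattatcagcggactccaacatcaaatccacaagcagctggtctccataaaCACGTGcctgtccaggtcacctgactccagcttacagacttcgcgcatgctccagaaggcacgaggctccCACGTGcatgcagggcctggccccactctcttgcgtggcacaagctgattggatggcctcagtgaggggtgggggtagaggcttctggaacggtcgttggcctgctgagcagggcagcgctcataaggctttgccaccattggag
Stag3: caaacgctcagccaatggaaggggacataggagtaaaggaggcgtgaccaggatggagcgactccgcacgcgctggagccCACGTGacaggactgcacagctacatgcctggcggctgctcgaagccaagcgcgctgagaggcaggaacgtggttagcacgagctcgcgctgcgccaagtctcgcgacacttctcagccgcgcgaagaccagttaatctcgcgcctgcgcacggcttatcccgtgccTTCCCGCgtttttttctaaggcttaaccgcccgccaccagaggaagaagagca
Dmrtc2: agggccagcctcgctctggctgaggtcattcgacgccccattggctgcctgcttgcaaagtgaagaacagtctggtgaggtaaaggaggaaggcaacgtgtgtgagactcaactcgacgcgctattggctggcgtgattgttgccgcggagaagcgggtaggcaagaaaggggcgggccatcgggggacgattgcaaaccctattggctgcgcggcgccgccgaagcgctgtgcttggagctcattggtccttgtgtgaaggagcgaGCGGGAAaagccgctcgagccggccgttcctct
Stk31: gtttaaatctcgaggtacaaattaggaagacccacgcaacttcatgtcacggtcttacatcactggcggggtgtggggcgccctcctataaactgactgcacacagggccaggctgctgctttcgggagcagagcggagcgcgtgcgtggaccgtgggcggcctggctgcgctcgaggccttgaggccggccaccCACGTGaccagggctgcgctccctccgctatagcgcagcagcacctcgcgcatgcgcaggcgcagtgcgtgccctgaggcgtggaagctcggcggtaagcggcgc
Hormad1: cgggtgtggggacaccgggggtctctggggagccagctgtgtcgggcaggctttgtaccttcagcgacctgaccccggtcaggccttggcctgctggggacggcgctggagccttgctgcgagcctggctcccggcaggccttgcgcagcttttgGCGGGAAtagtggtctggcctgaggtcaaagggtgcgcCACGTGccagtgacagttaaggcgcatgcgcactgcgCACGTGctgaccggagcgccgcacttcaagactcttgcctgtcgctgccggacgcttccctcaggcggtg

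**Figure D3:**
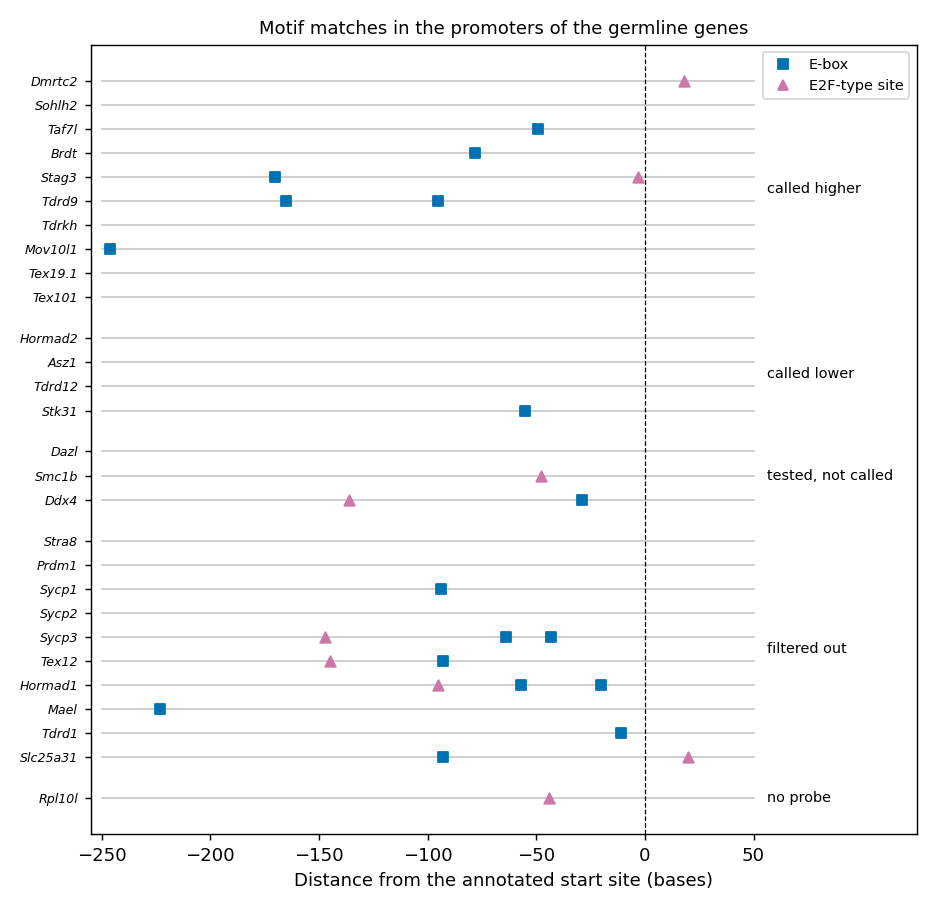
Position of each E-box (squares) and E2F-type match (triangles) relative to the annotated start (x axis, bases) in the first promoter of the 28 matched germline genes (y axis), grouped by how the gene changed at days 2 and 3. Matches stand in 14 and 9 genes, and the E-boxes lie between -246 and -11 bases.

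Values by array are given below in the order of replicates 1, 2 and 3, as log2 normalized intensity, and differences as log2 difference ± standard error of limma with 3 arrays per day. Among the regulators of germ cells and meiotic entry, 3 of the 5 tested rose at day 2 (14.8% of all genes) and 4 at day 3 (21.4%), and 0 fell. Without Dmrtc2, which was undetected at day 0, these were 2 and 3 of 4. The group is broad, and Stra8, Dmrt1 and Prdm1, also in it, did not pass the filter. Taf7l, the germ cell paralog of the TFIID subunit Taf7, lies on chromosome X and had levels of 8.61, 9.13 and 8.84 at day 0, 9.03, 9.13 and 9.45 at day 1, 10.34, 10.35 and 10.17 at day 2 and 10.92, 11.08 and 11.15 at day 3. The day 1 arrays overlapped those of day 0, while all arrays of day 2 and then of day 3 were higher than any before. The difference from day 0 was 1.43 ± 0.15 at day 2, 2.69-fold (limma adjusted p of 6.92e-05), and 2.19 ± 0.15 at day 3, 4.56-fold (9.40e-07). Both calls were kept under every alternative setting and with any array left out.

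Dmrtc2 had levels of 5.67, 5.88 and 6.06 at day 0, 7.19, 7.22 and 7.17 at day 1, 7.13, 7.54 and 7.80 at day 2 and 6.82, 6.65 and 7.36 at day 3. Its 3 day 0 arrays were below detection, and all later arrays were higher than all of day 0, with the highest mean at day 2. It was at least 2.09-fold higher at day 1 (limma adjusted p of 0.0469), at least 2.56-fold at day 2 (0.000151) and at least 1.75-fold at day 3 (0.00107), where each bound is the later mean over the day 0 detection limit. The day 1 call was close to the threshold and was lost in 8 of the 12 fits that left out 1 array: leaving out replicate 1 or 2 of day 0 gave an adjusted p of 0.191 or 0.0999, leaving out replicate 1, 2 or 3 of day 1 gave 0.166, 0.222 or 0.158, leaving out replicate 2 or 3 of day 2 gave 0.0908 or 0.0506, and leaving out replicate 1 of day 3 gave 0.075. Over the other settings its adjusted p ranged up to 1 with no scaling, and with no background correction the difference was 0.48 (0.12). With the replicate number as a block, the day 1 limma adjusted p was 0.0115. The day 2 and day 3 calls were kept throughout.

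Sohlh2 had levels of 6.16, 5.998 and 6.95 at day 0, 6.52, 6.18 and 7.10 at day 1, 6.94, 7.12 and 6.86 at day 2 and 7.09, 7.65 and 7.40 at day 3. Day 0 replicate 3 stood within the range of days 1 and 2, the other 2 day 0 arrays lay at or near the detection limit, and all 3 day 3 arrays were above day 0. The difference was 0.60 ± 0.26 at day 2 (limma adjusted p of 0.122, not called) and 1.01 ± 0.26 at day 3, 2.01-fold (0.00888). Without day 0 replicate 3 the day 2 difference was 0.89 and passed (0.0209), and with no scaling the day 3 call was lost (0.0798).

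Brdt, the testis member of the BET proteins that read acetylated histones, had levels of 7.60, 7.79 and 7.46 at day 0, 7.93, 7.72 and 7.59 at day 1, 8.34, 8.30 and 7.85 at day 2 and 8.23, 8.05 and 8.14 at day 3. Days 2 and 3 lay above day 0 on every array, by a small margin for day 2 replicate 3, and day 1 overlapped days 0 and 2. It rose by 0.55 ± 0.15 at day 2 (limma adjusted p of 0.0215) and 0.52 ± 0.15 at day 3 (0.016), which is 1.46-fold and 1.44-fold. The day 2 call did not survive leaving out replicate 1 (0.058) or 3 (0.0681) of day 0 or replicate 1 (0.0795) or 2 (0.0818) of day 2, nor the day 3 call leaving out replicate 3 of day 0 (0.0592) or replicate 1 of day 3 (0.0534), and both were lost with no scaling (0.0504 and 0.326). A second Brdt probe, detected on 1 of 3 day 0 arrays, was called in the same direction at both days, with differences of 0.97 (0.0162) and 0.84 (0.0173) when all detected probes were fitted.

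Dazl, an RNA-binding protein of germ cells that promotes translation, had levels of 9.58, 9.66 and 9.50 at day 0, 9.11, 9.28 and 9.14 at day 1, 9.54, 9.70 and 9.77 at day 2 and 9.55, 9.40 and 9.59 at day 3. All 3 day 1 arrays lay below every other array, while days 0, 2 and 3 overlapped. The day 1 difference was -0.40 ± 0.11 (limma adjusted p of 0.242, not called), and days 2 and 3 differed from day 0 by 0.09 and -0.06 (0.598 and 0.681).

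**Figure D4:**
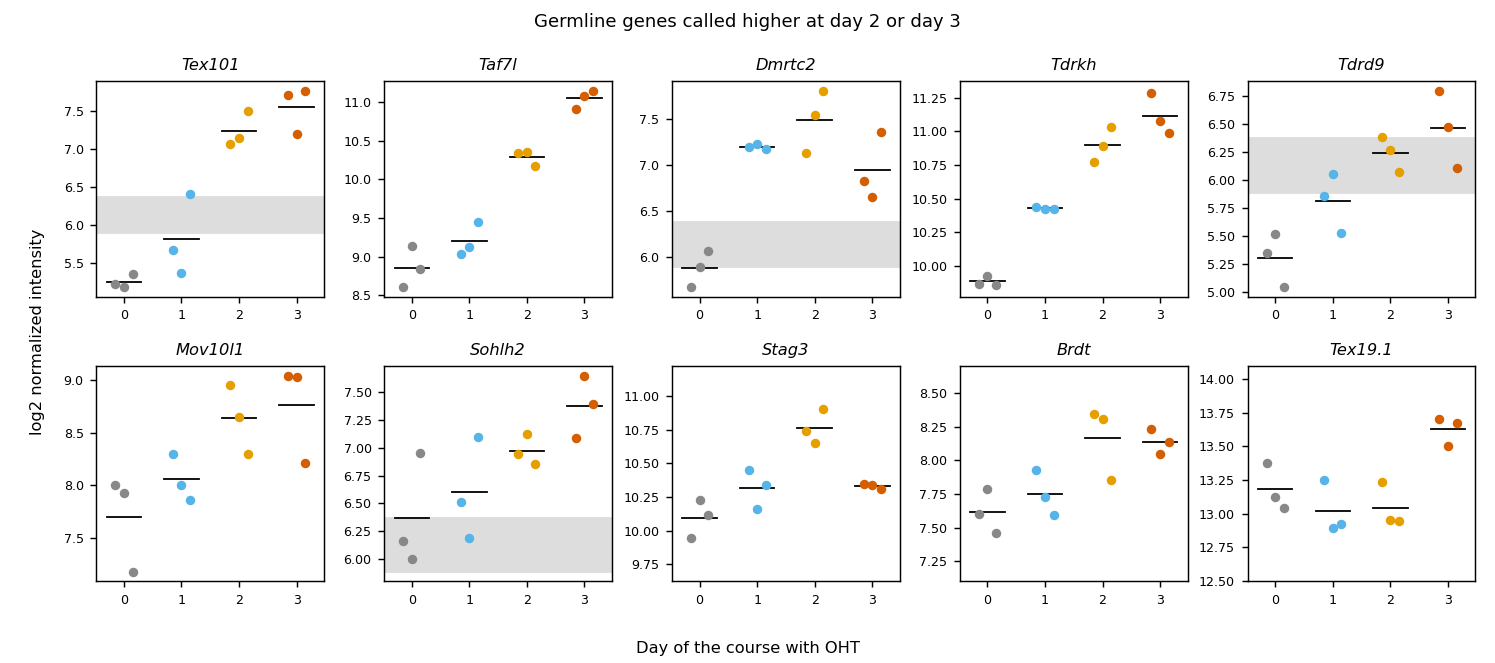
Log2 normalized intensity (y axis) on each array (points) by day of the course (x axis) for the 10 germline genes that rose at day 2 or day 3, with the day mean as a line and the range of the detection limits of the 12 arrays, 5.89 to 6.37, as a grey band where it falls in the panel. Tex101, Dmrtc2 and Tdrd9 start in or below the band, and Stag3 is highest at day 2.

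Of the 4 meiotic chromosome genes tested, 1 rose at day 2 (25%, with 14.8% of all genes called higher) and 1 fell at day 3 (25%, with 17.8% called lower). Stag3, a cohesin subunit of meiosis, had levels of 9.94, 10.22 and 10.12 at day 0, 10.45, 10.16 and 10.34 at day 1, 10.74, 10.65 and 10.90 at day 2 and 10.35, 10.34 and 10.31 at day 3. The day 2 arrays stood above all others, and the day 3 arrays, which differed little from each other, returned to the range of day 1. It rose by 0.67 ± 0.12 at day 2, 1.59-fold (limma adjusted p of 0.00195), a call that was lost with no scaling (0.0535), and the day 3 difference of 0.24 ± 0.12 was not called (0.136).

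Smc1b, the meiotic form of the cohesin ATPase SMC1, had levels of 8.08, 7.91 and 8.30 at day 0, 8.17, 8.03 and 8.58 at day 1, 8.64, 8.31 and 8.71 at day 2 and 7.25, 7.74 and 8.22 at day 3. Day 2 lay just above day 0 on every array, and day 3 spread widely, from the lowest array of the course to the range of day 0. Neither difference from day 0 was called, with 0.46 ± 0.23 at day 2 (limma adjusted p of 0.17) and -0.36 ± 0.23 at day 3 (0.228). Without day 3 replicate 3 the latter was -0.60 and passed (0.0359).

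Hormad2 had levels of 7.37, 7.10 and 7.15 at day 0, 7.42, 7.68 and 7.05 at day 1, 7.34, 7.05 and 6.85 at day 2 and 6.69, 6.36 and 6.19 at day 3. Days 0, 1 and 2 overlapped, and all 3 day 3 arrays were lower than any earlier one and close to the detection limit. It fell by 0.79 on the log2 scale at day 3 with a standard error of 0.19, 1.73-fold lower (limma adjusted p of 0.00493), and the call was lost with no scaling (0.0685). Tex11, an X-linked protein of crossover formation, spread over 8.23 to 9.02 and was not called, with a day 3 difference of 0.37 ± 0.21 (0.174), although all its day 3 arrays lay above day 0.

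Among the piRNA pathway and germ granule genes, 3 of the 10 tested rose and 2 fell at day 2 (14.8% and 7.6% of all genes), and 4 rose and 4 fell at day 3 (21.4% and 17.8%). Without Tdrd9, which was undetected at day 0, the rises were 2 and 3 of 9. Tdrkh, a tudor protein of mitochondria on which PIWI-bound RNAs are trimmed, had levels of 9.87, 9.93 and 9.86 at day 0, 10.44, 10.42 and 10.43 at day 1, 10.77, 10.89 and 11.03 at day 2 and 11.28, 11.08 and 10.99 at day 3. Its arrays did not overlap between days 0, 1 and 2, and those of day 1 were nearly equal to each other. It differed by 0.54 ± 0.11 at day 1 (limma adjusted p of 0.121, not called), and rose by 1.01 ± 0.11 at day 2, 2.01-fold (7.97e-05), and 1.23 ± 0.11 at day 3, 2.34-fold (5.84e-06). A second, dimmer Tdrkh probe rose by 0.91 and 1.15 (0.00283 and 0.000229) when all detected probes were fitted. Both calls against day 0 were kept under every setting and with any array left out.

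Mov10l1, the RNA helicase that feeds precursors into the piRNA pathway, had levels of 8.005, 7.92 and 7.18 at day 0, 8.30, 8.01 and 7.87 at day 1, 8.96, 8.65 and 8.30 at day 2 and 9.04, 9.03 and 8.21 at day 3. Replicate 3 was the lowest array on each day, and days 2 and 3 still lay above day 0 on every array. It rose by 0.93 ± 0.27 at day 2 (limma adjusted p of 0.0246) and 1.06 ± 0.27 at day 3 (0.00724), which is 1.91-fold and 2.08-fold. Leaving out replicate 3 of day 0 (0.0861), or replicate 1 (0.0912) or 2 (0.0676) of day 2, took away the day 2 call.

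Tdrd9 had levels of 5.34, 5.51 and 5.04 at day 0, 5.86, 6.06 and 5.52 at day 1, 6.39, 6.27 and 6.07 at day 2 and 6.80, 6.48 and 6.11 at day 3. No array of days 0 and 1 was detected, all of days 2 and 3 were, and every later array lay above all 3 of day 0. Its rise was at least 1.08-fold at day 2 (limma adjusted p of 0.00432) and at least 1.26-fold at day 3 (0.00049), bounds that are near 1 because all its levels stayed close to the detection limit. The calls were kept throughout.

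Tex19.1, which restrains retrotransposons in germ cells and pluripotent cells, was bright on every array, with levels of 13.38, 13.13 and 13.04 at day 0, 13.25, 12.89 and 12.93 at day 1, 13.23, 12.95 and 12.95 at day 2 and 13.70, 13.50 and 13.68 at day 3. Days 0, 1 and 2 overlapped and all day 3 arrays were higher. It differed by -0.14 ± 0.14 at day 2 (limma adjusted p of 0.524, not called) and rose by 0.45 ± 0.14 at day 3, 1.36-fold (0.0241). Leaving out replicate 2 (0.0685) or 3 (0.0807) of day 0, or replicate 1 (0.071) or 3 (0.051) of day 3, removed this call. So did the 75th percentile as the scaling (0.198) and the absence of scaling (0.697).

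At day 3, 4 of the 5 falls were in this group. Asz1, which anchors germ granules at mitochondria, had levels of 7.79, 7.64 and 7.80 at day 0, 7.35, 7.11 and 7.37 at day 1, 7.25, 6.76 and 6.69 at day 2 and 6.22, 6.34 and 6.20 at day 3. Each day's mean was lower than the one before, all later arrays lay below day 0, and day 3 sat at the detection limit. It differed by -0.47 ± 0.15 at day 1 (limma adjusted p of 0.293, not called) and fell at day 2 (-0.84 ± 0.15, 1.79-fold lower, 0.00169) and at day 3 (-1.49 ± 0.15, 2.81-fold lower, 1.04e-05). With no scaling the day 2 call was lost (0.312).

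Stk31, a tudor domain kinase of the testis, had levels of 8.18, 8.06 and 8.19 at day 0, 7.75, 7.56 and 7.87 at day 1, 7.48, 7.66 and 7.40 at day 2 and 6.94, 6.54 and 7.25 at day 3. As with Asz1, all later arrays lay below day 0 and the means declined by day. The differences were -0.42 ± 0.16 at day 1 (limma adjusted p of 0.419, not called), -0.63 ± 0.16 at day 2, 1.55-fold lower (0.0159), and -1.23 ± 0.16 at day 3, 2.35-fold lower (9.68e-05). The day 2 call was lost without day 2 replicate 3 (0.0581) and with no scaling (0.68).

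Rnf17, a tudor and RING finger protein of germ granules, had levels of 10.20, 9.74 and 10.06 at day 0, 9.69, 9.71 and 9.91 at day 1, 9.45, 9.58 and 9.68 at day 2 and 8.94, 8.67 and 9.49 at day 3. Days 2 and 3 lay below day 0 on every array, and day 3 replicate 3 stayed within the range of day 2. The difference was -0.43 ± 0.19 at day 2 (limma adjusted p of 0.128, not called) and -0.96 ± 0.19 at day 3, 1.95-fold lower (0.00161). Without day 3 replicate 3 the day 2 difference of -0.43 passed (0.0437). A second Rnf17 probe was also lower at day 3, by -1.04 (0.0174) when all detected probes were fitted.

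Tdrd12, a helicase with tudor domains that acts in piRNA production, had levels of 10.65, 10.96 and 10.83 at day 0, 10.85, 10.84 and 10.86 at day 1, 10.64, 10.42 and 10.37 at day 2 and 10.28, 10.33 and 9.996 at day 3. Days 2 and 3 lay below days 0 and 1 on every array, by a very small margin at day 2. It differed by -0.34 ± 0.13 at day 2 (limma adjusted p of 0.0788, not called) and fell at day 3 (-0.61 ± 0.13, 1.53-fold lower, 0.00237). The day 2 difference passed with scaling to the 75th percentile (-0.47, 0.026), with no background correction (-0.30, 0.0379) and with the authors' deposited normalized values (-0.30, 0.0382), and the day 3 call was lost with no scaling (0.0644).

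Ddx4, the germ cell RNA helicase known as Vasa, was detected on all arrays at low levels of 6.36 to 7.16 and was not called, with a day 3 difference of -0.25 ± 0.20 (limma adjusted p of 0.347). Day 3 replicate 2 was its highest array, and without it the difference was -0.52 and passed (0.029). A second Ddx4 probe pointed the other way at day 2 (0.43 against -0.30), and neither was called. Piwil2, the PIWI protein MILI, stayed between 8.16 and 8.80 on all arrays, with differences from day 0 of -0.08, 0.05 and -0.20 that were not called (0.901, 0.853 and 0.33).

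**Figure D5:**
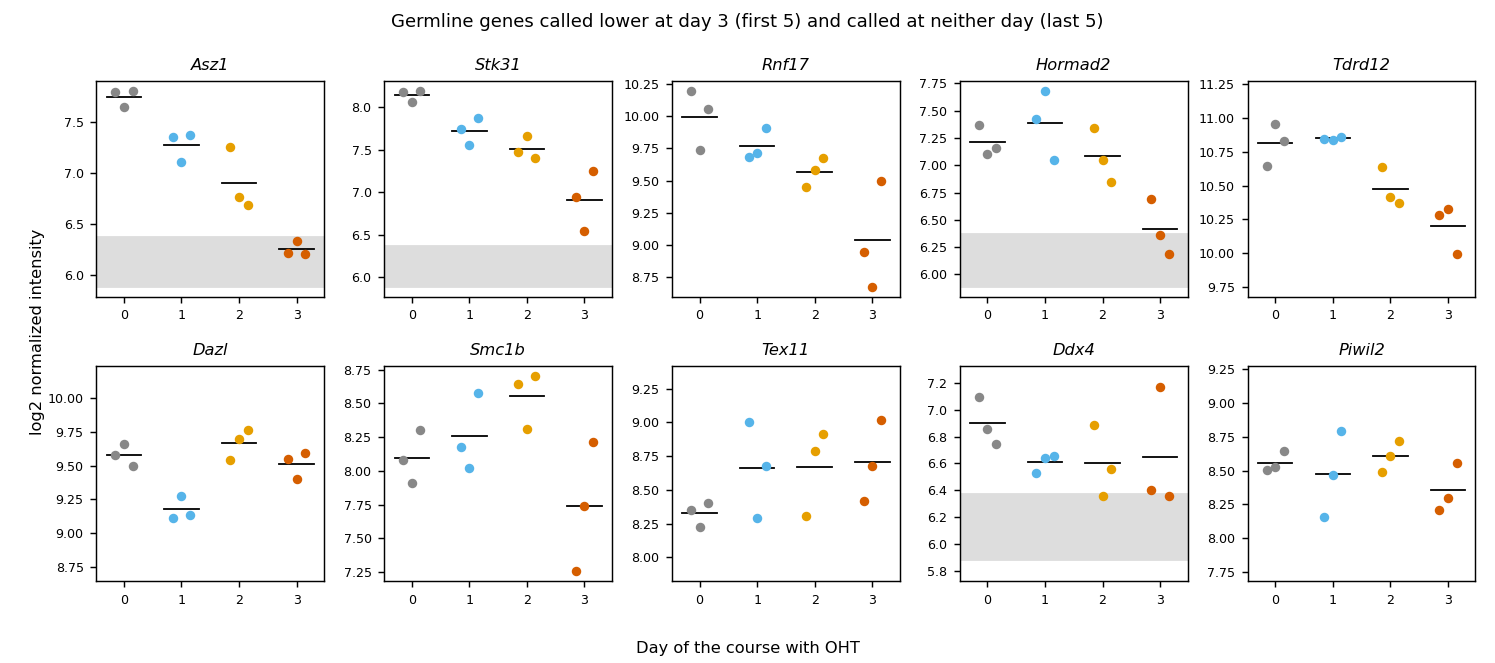
Log2 normalized intensity (y axis) on each array (points) by day of the course (x axis) for the 5 germline genes that fell by day 3 (Asz1, Stk31, Rnf17, Hormad2, Tdrd12) and the 5 called at neither day 2 nor day 3 against day 0 (Dazl, Smc1b, Tex11, Ddx4, Piwil2), with the day mean as a line and the detection limits as a grey band. Asz1 and Hormad2 reach the band at day 3, and the day 1 arrays of Dazl lie below the rest.

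Of the germ cell surface protein and the germ cell copies of housekeeping genes, Tex101 could be tested. Its levels were 5.22, 5.18 and 5.34 at day 0, 5.66, 5.36 and 6.41 at day 1, 7.07, 7.15 and 7.50 at day 2 and 7.71, 7.21 and 7.77 at day 3. Day 0 was below detection on every array, day 1 replicate 3 was the first array detected, and days 2 and 3 stood well above both. It was at least 2.15-fold higher at day 2 (limma adjusted p of 0.000124) and at least 2.69-fold higher at day 3 (1.30e-05), and both calls were kept under every setting and with any array left out.

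The steps between later days date these changes more closely. From day 1 to day 2, 5 of the 20 genes rose (25%, with 7.3% of all genes called higher) and 0 fell (3.53% called lower). They were Tex101 (1.43 ± 0.24, limma adjusted p of 0.00323, from a day 1 mean below the detection limit with 1 of 3 arrays detected, and 1.04 with the undetected arrays raised to their limit), Taf7l (1.08 ± 0.15, 0.00137), Dazl (0.49 ± 0.11, 0.0147), Tdrkh (0.47 ± 0.11, 0.0201) and Stag3 (0.45 ± 0.12, 0.0334). Of these, Tex101 and Taf7l were called under every setting. The step of Dazl started from a lower day 1, and its day 2 level was not called against day 0 (0.09, limma adjusted p of 0.598). Dazl was no longer called when replicate 1 (0.0595) or 3 (0.0547) of day 1, or replicate 2 (0.0516) or 3 (0.0654) of day 2, was left out. That of Tdrkh was lost without any 1 of the day 1 arrays (0.0597, 0.0689 and 0.0606) or without day 2 replicate 2 (0.0573) or 3 (0.0891). Stag3 lost it without day 1 replicate 2 (0.137) or 3 (0.0778) or any 1 of the day 2 arrays (0.0687, 0.0511 and 0.132). Asz1 passed without day 2 replicate 1 (-0.55, 0.026) and Brdt without day 2 replicate 3 (0.58, 0.0408). With the 75th percentile as the scaling, 3 genes rose. The arrays of day 2 lay all above those of day 1 for 6 genes (19.5% of all genes) and all below for 2 (15.3%). Among the 17 genes detected at day 0, 4 rose in this step and 4 had all arrays above.

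From day 2 to day 3, 2 genes rose (10%, with 5.7% of all genes called higher) and 5 fell (25%, with 6.7% called lower). All day 3 arrays were above those of day 2 for 2 genes (14.7% of all genes) and below them for 6 (16.5%). Taf7l rose by 0.76 ± 0.15 (limma adjusted p of 0.0081) and Tex19.1 by 0.58 ± 0.14 (0.019). The falls were of Smc1b (-0.81 ± 0.23, 0.0341), Hormad2 (-0.67 ± 0.19, 0.0362), Asz1 (-0.65 ± 0.15, 0.015), Stk31 (-0.60 ± 0.16, 0.0321) and Stag3 (-0.43 ± 0.12, 0.0349). Both meiotic cohesin genes of the list, Stag3 and Smc1b, thus had their highest mean at day 2 and were lower at day 3. Most of these falls were near the threshold. Without day 2 replicates 1, 2 or 3 in turn, 2 genes were called lower each time, and without day 3 replicate 1 or 2 the numbers were 2 and 1. The adjusted p of Smc1b was 0.0882 or 0.116 when replicate 1 or 3 of day 2 was left out, and 0.114 or 0.088 for replicate 1 or 2 of day 3. Hormad2 was at 0.115 or 0.081 for replicate 1 or 2 of day 2, at 0.101 or 0.0761 for replicate 2 or 3 of day 3, and at 0.0507 for replicate 1 of day 1. For Stk31 the 3 arrays of day 2 gave 0.0647, 0.108 and 0.0632 when left out, and replicates 1 and 2 of day 3 gave 0.0703 and 0.113. Stag3 was at 0.068, 0.0504 and 0.134 without those of day 2, at 0.0787, 0.0855 and 0.0504 without those of day 3, and at 0.0506 without day 1 replicate 3. The rise of Tex19.1 was not called once replicate 2 (0.066) or 3 (0.0747) of day 2 or replicate 1 of day 3 (0.0619) was left out, while Taf7l and Asz1 kept their calls with any array left out. With no background correction Asz1 (0.0609) and Hormad2 (0.0753) were not called. Another 2 genes passed in such fits: Dmrtc2 fell without day 2 replicate 1 (-0.73, 0.044) or day 3 replicate 3 (-0.76, 0.0171), and Rnf17 without day 3 replicate 3 (-0.77, 0.00888).

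Other genes of the same pathways, from lists that do not overlap the 33 genes, gave the following counts. These lists too were chosen with earlier results of these data known. Of 26 other meiosis genes, 21 had a probe and 13 were tested, and 5 rose at day 2 (38.5%, with 14.8% of all genes called higher) and 3 at day 3 (23.1%, with 21.4%, so near the share of all genes), with 0 falls. They were Syce3 (1.06 and 0.90 at days 2 and 3), a central element protein of the synaptonemal complex, Rec114 (0.99 and 1.00), which helps to form meiotic DNA breaks, and the meiotic cohesin subunit Rec8 (0.90 and 0.49). The telomere attachment protein Terb1, undetected at day 0 (at least 1.4-fold at day 2), and Meiob (0.70), a single-strand DNA binding protein of recombination, were called at day 2 alone, with Meiob at -0.32 and not called at day 3. The day 2 count includes Terb1, which passed the filter only through later days, mostly the 3 arrays of day 2, so that its rise was favoured by the filter. The median of the 13 genes was 0.07 at day 2 and -0.28 at day 3.

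Of 13 other piRNA pathway genes, 9 were tested, and 5 rose at day 2 (55.6%, with 14.8% of all genes) and 6 at day 3 (66.7%, with 21.4%), with 0 falls and medians of 0.80 and 0.78. Tex19.2, the neighbouring paralog of Tex19.1, rose by 1.55 ± 0.14 and 2.35 ± 0.14 (limma adjusted p of 2.49e-05 and 3.17e-07). Tdrd7 (0.96 and 1.17), Piwil1 (0.99 and 0.96), Gtsf1 (0.80 and 0.89) and Gpat2 (0.84 and 0.78) rose at both days, and Tdrd5 at day 3 (0.50). At day 0, Tdrd7 was detected on 1 of 3 arrays and Tdrd5 on 2 of 3, and with undetected arrays raised to their detection limit the differences of Tdrd7 were 0.83 and 1.03. Tdrd7 passed the filter only with arrays of days 2 and 3, so its rises, counted above, were favoured by the filter. The germline list holds close relatives of these genes that went different ways, with Tdrd9 and Tdrkh rising, Tdrd12 falling and Piwil2 not called.

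Of 17 other germ cell regulators, 11 were tested, and 3 rose and 4 fell at day 2 (27.3% and 36.4%, with 14.8% and 7.6% of all genes), and 3 rose and 5 fell at day 3 (27.3% and 45.5%, with 21.4% and 17.8%). Sohlh1, the partner of Sohlh2, rose by 1.73 ± 0.19 and 2.05 ± 0.19 (limma adjusted p of 7.66e-05 and 6.37e-06) from a day 0 mean below the detection limit, with 1 of 3 day 0 arrays detected. With the undetected arrays raised to their limit, its differences were 1.38 and 1.70. Sohlh1 passed the filter only with arrays of the later days, so its rises, counted here, were favoured by the filter. Ybx2 (0.88 and 0.83), which stores messenger RNA in germ cells, and Tfap2c (0.82 and 0.77), a transcription factor of primordial germ cells, also rose. Prdm14, which acts in primordial germ cells and in naive pluripotency, fell by -0.86 ± 0.15 and -2.24 ± 0.15, and Boll (-0.64 and -1.04), a relative of Dazl, and Tex14 (-0.44 and -0.84), of the bridges between germ cells, fell too. Of 20 spermatid and sperm genes, 19 had a probe and 1 was detected well enough to be tested, and it was not called.

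The PRC1.6 complex itself was measured through 13 of 14 listed subunits, of which 1 rose and 3 fell at day 2 (7.69% and 23.1%, with 14.8% and 7.6% of all genes) and 2 rose and 7 fell at day 3 (15.4% and 53.8%, with 21.4% and 17.8%). Mga, whose protein binds the E-box with Max, was detected on 2 of 3 arrays at day 0 and undetected at days 2 and 3. There it was at least 1.29-fold and 1.17-fold lower than at day 0 (limma adjusted p of 0.0313 and 0.0065). Mga passed the filter only through arrays of days 0 and 1, so its falls, counted above, were favoured by the filter. Max changed by -0.83 ± 0.21 at day 2 (0.0145) and by -0.45 at day 3, which was not called (0.111). Cbx3 (-0.86), Wdr5 (-0.75) and Rnf2 (-0.75) fell at day 3 and Yaf2 rose (1.15). Of 8 DNA and H3K9 methylation genes tested, Setdb1, an H3K9 methyltransferase, fell at both days (-0.66 and -0.58), Dnmt3l rose at day 3 (0.83) and the other 6 were called at neither day. At day 2, 0% rose and 12.5% fell (14.8% and 7.6% of all genes). The shares at day 3 were 12.5% and 12.5%, below the 21.4% and 17.8% of all genes. Whether these changes bear on those of the germline genes was not tested.

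Markers of other cell types moved with some of these results. All 8 ES cell markers were detected on every array. Their summed normalized intensity lay between 68910 and 74084 at day 0 and between 45843 and 48101 at day 3. There 5 of 8 were lower (62.5%, with 17.8% of all genes called lower), Sox2, Nanog and Pou5f1 among them. Of 4 tested markers of 2-cell-like cells (Zscan4c, Tcstv1, Tcstv3 and Gm5662), all rose at days 2 and 3 (with 14.8% and 21.4% of all genes called higher). The list's sum went from 5984 to 6868 at day 0 to 13929 to 18866 at day 3. Trophectoderm markers went from a sum of 1547 to 1700 at day 0 to 1959 to 2284 at day 3. At day 3, 3 of 5 tested, Gata3, Krt7 and Krt18, were called higher (60%, with 21.4% of all genes). The transcription factor Cdx2 (-0.52, limma adjusted p of 0.0133) was the 1 called lower (20%, near the 17.8% of all genes). Gata3, among those called higher, was undetected at day 0 and passed the filter only through later days. Elf5, Eomes and Hand1 were undetected on every array. Of 9 fibroblast markers with a probe, Thy1 alone was detected on all 3 arrays of a day and rose (1.04 and 1.75). Another 7, including Col1a2, Col3a1 and Dcn, were undetected on every array. The list's sum, most of which is Thy1, went from 1341 to 1572 at day 0 to 3275 to 4987 at day 3. For primitive endoderm, Gata4, Sox17, Foxa2 and Cubn were undetected throughout, Dab2 rose (0.85 at day 3) and Sox7 fell (-0.80), with sums of 582 to 645 at day 0 and 636 to 710 at day 3. Gata6 and Pdgfra were detected on some but not all arrays of day 0 and on none of the later days. The part of these cell types in the changes of the germline genes was not tested.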

How the data were processed

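RNA from 12 samples was labelled as biotinylated cRNA and hybridised to Illumina bead arrays, per the labels' protocols. The deposited main table gives a linear intensity per probe and array, without background subtraction or scaling as far as the values show, made with GenomeStudio per the submitters' processing notes (version not given in the sources used here). The authors' detection p-value, deposited for every intensity, moves in steps of 1 in 936 negative controls. A second deposited table of intensity values shares 1 distribution across arrays and served as an alternative. Columns of samples left unused numbered 0.

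From these, log2 values were computed by limma 3.58.1 (R 4.3.3) through neqc (background from the deposited detection p-values, offset of 16, quantile normalization), since the deposited intensity is not on a log2 scale. The series probe table names 1 gene for 34885 probes, several for 18 and none for 10378. Probes detected at p under 0.01 on at least 3 arrays were kept, which left 14940 named probes, and the brightest probe stood for a gene. All 12 arrays entered 1 linear model with the day as a factor (lmFit, eBayes), from which 5 two-sided comparisons were taken. Errors are standard errors, and the number of arrays limits the precision. For a probe undetected on all arrays of a group, the fold is a bound against the detection limit. The script was tested on simulated data.

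Equally numbered arrays deviated together at days 1 and 0 (correlations of 0.20 to 0.44 over 3 pairs) and days 3 and 0 (0.26 to 0.42). Every pair there was over 0.1, so the replicate number pairs these days. In the other comparisons not every pair was over 0.1, and whether the number pairs the arrays is not settled. Their correlations were -0.03 to 0.25 for days 2 and 0, -0.02 to 0.26 for days 2 and 1, and 0.07 to 0.46 for days 3 and 2. The main model holds no term for the replicate number, and the block was run as an alternative. Members called in any comparison are given with every array, and of the other lists up to 6 called genes each. The members and lists were chosen with earlier results of these data known. Alternatives were the scaling, the background, the filter, the probe, the deposited normalized values, the replicate block and leaving out each array. Promoters are from RefSeq (GRCm38.p6) and were searched with Python 3.11.15. Figures used matplotlib 3.10.9.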

Additional observations from a re-analysis of the deposited data

How the results depend on the processing

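Of 37 calls of a germline gene in a comparison, 16 were kept in all 21 alternatives and 21 were lost in at least 1, while 12 of the 63 differences not called passed in at least 1, and 0 called differences changed sign. The counts that moved most did so with no scaling between arrays, which shifts the median of all genes by 0.27 from day 0 to 2, 0.29 from day 1 to 2 and -0.36 from day 2 to 3. With it, 0 genes were called higher at day 1, 0 lower at day 2, 3 lower at day 3, 2 higher from day 1 to 2, 0 higher and 0 lower from day 2 to 3, and 8 changed across the days. No background correction, the authors' deposited normalized values, no filter on detection and fitting every detected probe each gave 0 genes called higher at day 1. Scaling to the 75th percentile gave 3 higher from day 1 to 2, and this setting, no background correction and the deposited values each gave 1 lower from day 1 to 2 and 3 lower from day 2 to 3. No filter gave 7 higher from day 1 to 2, Stra8 and Sycp2 among them, and 1 lower from day 2 to 3. Among all genes, day 2 against day 0 had 1473 higher and 755 lower, but 1183 and 1357 under 75th percentile scaling and, unscaled, 998 and 24. Day 3 against day 0 had 2121 and 1768, and 723 and 516 with no scaling.

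With the replicate number as a block, the counts at days 1, 2 and 3 against day 0 stayed at 1 and 0, 8 and 2, and 9 and 5 higher and lower. The adjusted p-values given by gene are from the fit without this block. At day 3 the block lowered the limma adjusted p of Mov10l1 to 0.000125 and raised that of Taf7l to 2.60e-06. From day 1 to 2 the block gave 8 higher, adding Brdt, Mov10l1 and Tdrd9, and from day 2 to 3 it gave 7 lower, adding Dmrtc2 and Rnf17, in comparisons where the number is not shown to pair the arrays. Leaving out each array in turn gave 0 to 1 higher at day 1, 6 to 8 higher and 1 to 3 lower at day 2, 7 to 9 higher and 5 to 6 lower at day 3, 2 to 5 higher and 0 to 1 lower from day 1 to 2, 1 to 2 higher and 1 to 5 lower from day 2 to 3, and 14 to 16 changed across the days. At the detection cutoff of 0.01, the number detected on all arrays of a day was 16 to 17, 18, 20 and 18 to 20 at days 0 to 3. The causes of these shifts were not tested. Genes near the detection limit, such as Tdrd9, Hormad2 and Asz1 at day 3, are limited by signal over background.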
